A study of Mus musculus with 6 samples.

Results

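The lysosome's acid hydrolases, its main membrane proteins, its proton pump and a pair of transcription factors that control many of its genes were followed in mouse dendritic cells and macrophages grown from bone marrow. The list held 38 genes in 7 classes: 8 hydrolases of glycoproteins and glycogen, 6 of glycosaminoglycans, 6 hydrolases and activators for sphingolipids, 5 lipases, phosphatases, thioesterases and peptidases, 5 membrane proteins, 6 proton pump subunits and the factors Tfeb and Tfe3. A gene was measured by a probe set that the array annotation assigns to it alone, and where a gene had several, by whichever of them had the highest mean signal. All 38 genes were found among the 19938 genes measured in this way. Only Arsb had more than 1 probe set.

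Bone marrow of C57BL/6J mice, labelled as males aged 6 to 10 weeks, was cultured for 7 days, and each of the 3 populations was then sorted and hybridised to 2 Affymetrix arrays. The GM-BMDC were dendritic cells from cultures with GM-CSF at 25 ng/ml, taken as MHCIIhighF4/80low cells. The GM-BMM were macrophages from cultures with the same GM-CSF supplement, taken as MHCIIlowF4/80high cells. For M-BMM, macrophages sorted as positive for CD11b and for the same macrophage surface antigen as in those gates, the product of Adgre1, were taken after growth in medium with 20% L cell supernatant, which supplies M-CSF. No mutation, transgene or stimulus is named for any group. GM-BMDC against GM-BMM therefore compares sorted populations under the same growth factor, GM-BMM against M-BMM compares macrophages from different media that were also gated differently, and GM-BMDC against M-BMM differs in medium and gate together. The 3 comparisons share arrays, so their results for a gene are not independent of each other. The labels call the 2 arrays of a group biological replicates without naming animals or cultures, so p-values here weigh differences against array-to-array spread. In these bulk samples, fewer cells of a type and less RNA per cell cannot be told apart.

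Lysosomes break down material taken up by endocytosis and phagocytosis, and cell parts delivered by autophagy. Their hydrolases work at acid pH, which the vacuolar proton pump maintains by moving protons through its membrane sector, V0, at the cost of ATP split by its cytosolic sector, V1. Macrophages are known for strong lysosomal digestion, while dendritic cells are known to degrade captured protein more slowly, which leaves peptides for presentation on MHC molecules. Tfeb and Tfe3 are related transcription factors that are held in the cytosol when nutrients are plentiful and otherwise enter the nucleus, where they bind an E-box type element in the promoters of many lysosomal genes.

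The values are RMA log2 signals, in which a difference of 1 is a doubling, and they rank a gene across arrays but not 1 gene against another. All 38 genes lay above 5.04, the 25th percentile of all values, on every array, and their lowest value was 7.02. The array medians ran from 6.18 to 6.28. The mean over 7 macrophage markers was 9.05 to 9.98 in GM-BMDC, 10.9 to 11.2 in GM-BMM and 11.0 in M-BMM, and that over 8 dendritic cell markers was 10.1 to 10.4, 7.29 to 7.45 and 6.17 to 6.30. Adgre1 is in the first list and H2-Ab1, an MHC class II gene, in the second. The GM-CSF populations were gated on the Adgre1 product and on MHC class II, so part of their separation follows from the sort. Of the macrophage markers 4 of 7 were lower in GM-BMDC than in GM-BMM and 3 lower than in M-BMM, and the part of this in the lysosomal results was not tested. No population's mean of any of these 15 markers lay below the 25th percentile, although Flt3 was at 4.93 on the first GM-BMM array. The mean over 4 monocyte markers was 7.09 to 7.57 in GM-BMDC, 9.63 to 9.81 in GM-BMM and 6.87 to 7.40 in M-BMM. Sex-linked transcripts went against the label on some arrays: the Y-linked Eif2s3y was 3.94 and 8.80 in GM-BMDC, 3.66 and 9.10 in GM-BMM, and 9.32 and 9.17 in M-BMM. Xist, the RNA of the inactive X chromosome, was 11.66 and 10.68 in GM-BMDC, 11.58 and 4.93 in GM-BMM, and 4.53 and 4.80 in M-BMM. Counts of lysosomal genes are therefore given also with Y-linked signal as a covariate and without the first array of both GM-CSF populations. The second GM-BMDC array, high in both Eif2s3y and Xist, stays in each of these alternatives, so they do not remove the mismatch with the label. Of the 38 genes, 5 are X-linked: Atp6ap1, Gla, Ids, Lamp2 and Tfe3.

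Most lysosomal genes were lowest in the dendritic cells. Averaged over the 38 genes, the signal was 9.68 and 9.90 on the GM-BMDC arrays, 10.34 and 10.24 on the GM-BMM arrays, and 10.26 and 10.22 on the M-BMM arrays. Both GM-BMDC arrays lay below all 4 macrophage arrays for 25 of the 38 genes, or 65.8%, against 16.5% of all genes. Both lay above all 4 for Ids and Gm2a alone, and the share over all genes was 15.5%. Of the group means, the GM-BMDC mean was the lowest of the 3 for 28 genes, or 73.7%, against 35% of all genes.

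Against GM-BMM, 15 of the 38 genes were lower in GM-BMDC and 2 were higher in limma at an adjusted p under 0.05, where 5.74% of all 19938 genes were called lower and 4.69% higher. All 38 are among the 9969 genes with mean signal above the median, which are called more often than all genes. A fit of those 9969 alone called 1251 lower and 835 higher, among them 17 and 2 of the 38. The median log2 difference was -0.38 over the 38 genes and 0.02 over all genes, 35 of the 38 differences were negative, and they ran from -2.04 for Acp5 to 0.72 for Ids. The arrays did not overlap for 26 genes lower in GM-BMDC and 3 higher, with backgrounds of 24.6% and 26.7%. With the Y-linked covariate 13 genes were lower and 2 higher. Without the first array of both GM-CSF populations 9 were lower and 2 higher, and without the first GM-BMDC array alone the numbers were also 9 and 2. Against M-BMM, 17 of the 38 genes were lower in GM-BMDC and 3 were higher, with backgrounds of 8.9% and 7.76%, and the median difference was -0.40 against -0.002 over all genes. The fit of the 9969 genes of higher signal called 1812 lower and 1364 higher, among them 19 and 3 of the 38. Here the arrays did not overlap for 26 lower and 6 higher genes, with backgrounds of 29.8% and 26.6%. With the Y-linked covariate the counts called were 13 and 2, and without the first array of both GM-CSF populations 14 and 4. They fell to 11 and 2 without the first GM-BMDC array, to 7 and 0 without the first M-BMM array, and to 9 and 0 without the second.

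Between the macrophages, the counts of calls were near their backgrounds. GM-BMM exceeded M-BMM for 2 of the 38 genes, Fuca1 and Cd63, with a background of 3.62%, and limma called 0 lower, with a background of 2.57%. At an unadjusted p under 0.05 the counts were 5 higher and 5 lower, and over all 19938 genes 1873 and 1961. The median difference was 0.04, with 20 positive and 18 negative differences between -0.43 and 0.98, and none reached 1 on the log2 scale in size, as 728 of all 19938 genes did. Differences of that size were seen for 8 of the 38 genes between GM-BMDC and GM-BMM, with 1039 over all genes, and for 9 between GM-BMDC and M-BMM, with 1443 over all genes. The arrays did not overlap for 13 genes higher and 13 lower in GM-BMM, which are 34.2% each against backgrounds of 22.6% and 27.2%. Without either M-BMM array, the called count of 2 became 0. Both M-BMM arrays lay above all 4 arrays of the GM-CSF cultures for 12 genes, or 31.6% against 16.5% of all genes: Gaa, Glb1, Hexa, Neu1, Idua, Galns, Galc, Asah1, Acp2, Lamp1, Atp6v1h and Tfe3. Both GM-BMM arrays lay above the other 4 for 7 genes, or 18.4% against 9.46%: Manba, Naglu, Psap, Acp5, Mcoln1, Tcirg1 and Atp6ap1. These 2 patterns also need GM-BMDC to lie below M-BMM or GM-BMM, respectively. That held for 68.4% of the 38 genes in each case, against 29.8% and 24.6% of all genes. The 2 shares therefore do not measure a difference between the macrophages alone.

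**Figure D1:**
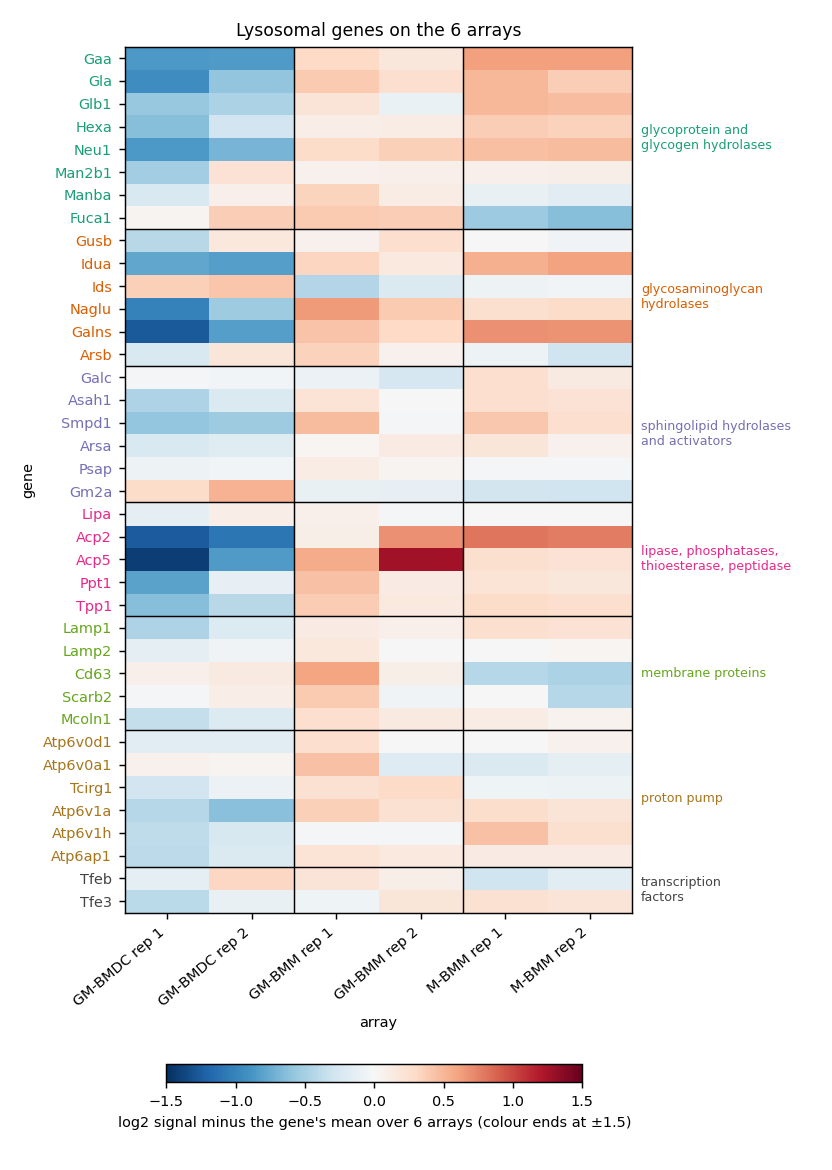
Colour shows the RMA log2 signal of each of the 38 lysosomal genes on each of the 6 arrays minus that gene's mean over the 6 arrays, with genes grouped by class. The 2 GM-BMDC columns are blue for most genes, and for 25 genes both lie below all 4 macrophage columns.

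**Figure D2:**
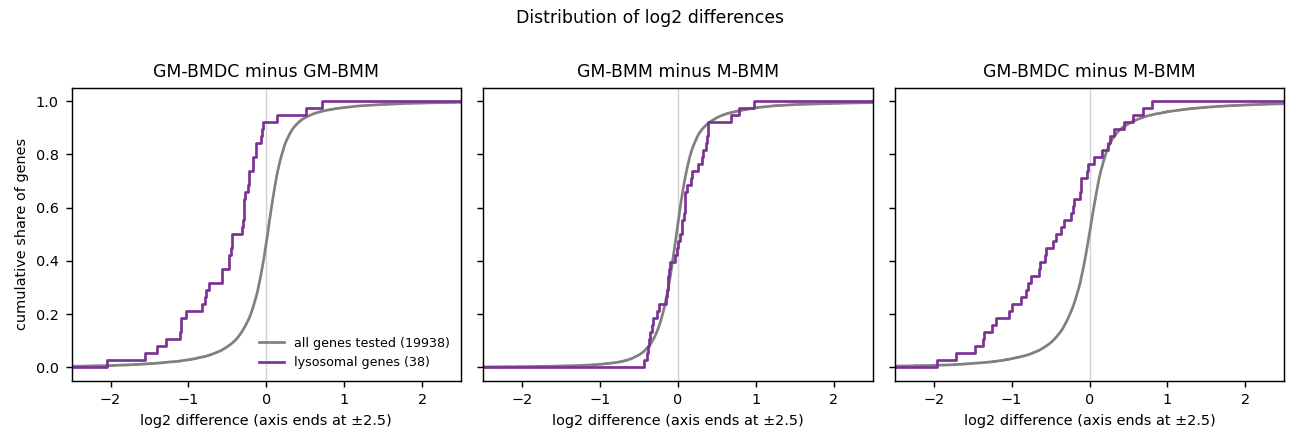
Cumulative share of genes (vertical axis) against the log2 difference (horizontal axis, ending at ±2.5) for the 38 lysosomal genes and all 19938 genes in the 3 comparisons. The curve of the lysosomal genes lies left of that of all genes over most of its range in both comparisons of GM-BMDC, with medians of -0.38 and -0.40, and near zero between the macrophages, with a median of 0.04.

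The GM-BMDC arrays also differed from each other. Over the 38 genes, the arrays of a group lay a median of 0.20 apart for GM-BMDC, 0.16 for GM-BMM and 0.04 for M-BMM, against 0.14, 0.14 and 0.12 over all genes. In GM-BMDC, 33 of the 38 genes, or 86.8%, were higher on the second array, by a median of 0.19, while 47% of all genes were. The second array also had the higher mean of macrophage markers, 9.98 against 9.05, and the higher Y-linked signal. The mean over 4 B lymphocyte markers went the other way, 7.34 on the first GM-BMDC array and 6.49 on the second, against 5.61 and 5.78 in GM-BMM and 6.47 and 6.50 in M-BMM. Of these markers, 2 were higher in GM-BMDC than in GM-BMM, Cd79a by 5.46-fold (limma adjusted p = 0.0028) and Ms4a1 by 3.30-fold (adjusted p = 0.00509). The part of any of these in the size of the differences was not tested. In GM-BMM, 10 genes, or 26.3%, were higher on the second array, against 55.7% of all genes. In M-BMM 12 were, or 31.6% against 49%. The median of the second array minus the first over the 38 genes was -0.125 in GM-BMM and -0.03 in M-BMM.

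The promoters were also searched for the E-box type element that Tfeb and Tfe3 bind. That element is known from many lysosomal genes, so a high share in this list does not bear on the array values. RefSeq promoter windows of GRCm38.p6, from 250 bases before the start to 50 after, were held for 35 of the 38 genes, and Galns, Atp6v1h and Asah1 had none. Both strands were searched for TCACGTGA, for TCACGTG and for CACGTG, which are nested, so that each longer match contains the shorter ones. TCACGTG stood in the windows of 9 genes, or 25.7%, namely Arsa, Atp6v0d1, Atp6v1a, Gaa, Gla, Glb1, Lamp1, Mcoln1 and Naglu, against 5.35% of the measured genes with a window. CACGTG was found in these same 9 genes and in 9.5% of the measured genes with a window. The full palindrome TCACGTGA stood in 4 genes, or 11.4% against 1.52%: Atp6v0d1, Atp6v1a, Gla and Mcoln1. The windows had a median GC content of 56.3% over the members and 57.3% over the measured genes. The stretches around these matches are shown for 8 genes, 5′ to 3′ on the strand of the gene, with the motif in capitals (TCACGTG, its reverse complement CACGTGA, or the palindrome):
Gaa, chr11:119267797-119267853, plus strand: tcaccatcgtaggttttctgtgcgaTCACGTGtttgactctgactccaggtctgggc
Gla, chrX:134601168-134601255, minus strand: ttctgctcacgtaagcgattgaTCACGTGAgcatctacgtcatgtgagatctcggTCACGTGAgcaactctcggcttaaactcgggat
Glb1, chr9:114401004-114401060, plus strand: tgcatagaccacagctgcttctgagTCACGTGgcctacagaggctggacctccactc
Naglu, chr11:101069995-101070051, plus strand: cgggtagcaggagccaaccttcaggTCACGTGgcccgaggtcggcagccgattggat
Arsa, chr15:89477425-89477466, minus strand: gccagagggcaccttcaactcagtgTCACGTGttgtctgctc
Lamp1, chr8:13159074-13159160, plus strand: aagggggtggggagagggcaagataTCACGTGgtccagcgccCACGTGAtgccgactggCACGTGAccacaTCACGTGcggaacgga
Mcoln1, chr8:3500422-3500505, plus strand: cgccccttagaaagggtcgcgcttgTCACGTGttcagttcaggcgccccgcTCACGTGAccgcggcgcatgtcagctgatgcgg
Atp6v1a, chr16:44139359-44139416, minus strand: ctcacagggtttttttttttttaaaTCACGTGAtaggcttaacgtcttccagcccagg

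Lamp1 held 4 matches, and Gla and Mcoln1 held 2 each. The 9 genes with TCACGTG had a median difference of -0.57 between GM-BMDC and GM-BMM, with 6 of them called lower, and of -0.75 between GM-BMDC and M-BMM, again with 6 lower. All 9 differences were negative in both comparisons, the smallest in size being -0.28 and -0.19. Among all 38 genes, 35 differences were negative against GM-BMM and 29 against M-BMM. Over all 19938 genes, 5.74% and 8.9% were called lower. The 26 genes whose windows lacked it had medians of -0.26, with 8 lower and 2 higher, and -0.11, with 8 lower and 3 higher. Between GM-BMM and M-BMM the medians were -0.04 with the motif and 0.08 without. Lower genes stood on both sides, and the difference between the sides was not tested.

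Hydrolases of glycoproteins and glycogen were lower in GM-BMDC for 5 of 8 genes against either macrophage, with median differences of -0.57 against GM-BMM and -0.91 against M-BMM. Beside this and the later counts by class stand the shares over all genes, 5.74% lower and 4.69% higher against GM-BMM, and 8.9% and 7.76% against M-BMM. The 5 were the same in both comparisons: Gaa, Gla, Glb1, Hexa and Neu1. Gaa, the acid alpha-glucosidase that degrades glycogen, was 8.12 and 8.13 in GM-BMDC, 9.28 and 9.16 in GM-BMM, and 9.60 and 9.60 in M-BMM. The populations did not overlap, and the GM-BMDC level was 2.14-fold below GM-BMM (log2 difference -1.10 ± 0.11 SE, n = 2 per group, limma adjusted p = 0.00118) and 2.78-fold below M-BMM (-1.47 ± 0.11, adjusted p = 0.000231). The step between the macrophages, -0.38 ± 0.11, did not pass (adjusted p = 0.099).

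Neu1, the sialidase that removes terminal sialic acids, was 7.56 and 7.73 in GM-BMDC, 8.71 and 8.79 in GM-BMM, and 8.88 and 8.91 in M-BMM. Its GM-BMDC level was 2.15-fold below GM-BMM (limma adjusted p = 0.00139) and 2.38-fold below M-BMM (adjusted p = 0.000508). Gla, the alpha-galactosidase that is deficient in Fabry disease, was 9.41 and 9.75, 10.75 and 10.60, and 10.85 and 10.72 in the same order. It was 2.13-fold lower than in GM-BMM (limma adjusted p = 0.00408) and 2.30-fold lower than in M-BMM (adjusted p = 0.0016). For Gaa, Neu1 and Gla the GM-BMDC arrays stood apart from all macrophage arrays, and these calls held under each alternative tried.

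Glb1, the beta-galactosidase, was 8.90 and 9.0 in GM-BMDC, 9.67 and 9.37 in GM-BMM, and 9.97 and 9.93 in M-BMM. The difference from M-BMM was -1.0 ± 0.13 (limma adjusted p = 0.00236) and held under each alternative. That from GM-BMM, 1.49-fold (adjusted p = 0.0363), was lost without any single array other than the second GM-BMM array, with adjusted p between 0.0726 and 0.163. Hexa, the gene mutated in Tay-Sachs disease, was 1.48-fold lower in GM-BMDC than in GM-BMM (limma adjusted p = 0.0427) and 1.76-fold lower than in M-BMM (adjusted p = 0.00696). The first call ended without any array but the second GM-BMDC array (adjusted p of 0.0998 to 0.179), and the second ended without either M-BMM array (0.0682 and 0.0593).

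Fuca1, the alpha-fucosidase, was instead lowest in M-BMM. Its signal was 9.87 and 10.20 in GM-BMDC, 10.22 and 10.20 in GM-BMM, and 9.28 and 9.18 in M-BMM, so that both M-BMM arrays lay below the other 4. GM-BMM exceeded M-BMM 1.97-fold (log2 difference 0.98 ± 0.14, limma adjusted p = 0.00689), and the dendritic cells did so 1.74-fold (0.80 ± 0.14, adjusted p = 0.00716). Both calls were lost without the first M-BMM array (adjusted p = 0.0681 and 0.0534) and without the second (0.0901 and 0.0699). Man2b1 and Manba, the alpha- and beta-mannosidase, passed no test. Man2b1 had the widest gap within GM-BMDC of the 38 genes, 10.76 and 11.50, which spans the 4 macrophage arrays at 11.35 to 11.38.

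Among the hydrolases of glycosaminoglycans, the long sugar chains of proteoglycans, 3 of 6 were lower in GM-BMDC against either macrophage, 1 was higher against either, and the medians were -0.66 and -0.57. Galns, a sulfatase acting on keratan sulfate and chondroitin sulfate, was 7.16 and 7.59 in GM-BMDC, 8.84 and 8.71 in GM-BMM, and 9.10 and 9.09 in M-BMM. All macrophage arrays exceeded both GM-BMDC arrays, by 2.64-fold in GM-BMM (-1.40 ± 0.16, limma adjusted p = 0.00193) and 3.29-fold in M-BMM (-1.72 ± 0.16, adjusted p = 0.000497). Idua, the alpha-iduronidase, was 8.77 and 8.73, 9.88 and 9.70, and 10.09 and 10.16. GM-BMDC was 2.05-fold below GM-BMM (limma adjusted p = 0.00193) and 2.59-fold below M-BMM (adjusted p = 0.000365), again without overlap. Naglu, which removes N-acetylglucosamine from heparan sulfate, was 7.54 and 8.02, 9.19 and 8.95, and 8.79 and 8.83. Its GM-BMDC level was 2.44-fold below GM-BMM (limma adjusted p = 0.00426) and 2.04-fold below M-BMM (adjusted p = 0.00684), and the latter call was lost without either M-BMM array (0.0644 and 0.0657).

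Ids, the iduronate sulfatase that acts in the same degradation pathway as Idua, was higher in GM-BMDC. It was 9.56 and 9.62 in GM-BMDC, 8.76 and 8.98 in GM-BMM, and 9.12 and 9.17 in M-BMM, so that the dendritic cell arrays were the highest and those of GM-BMM the lowest. The difference was 1.64-fold against GM-BMM (0.72 ± 0.12, limma adjusted p = 0.0105), which held under each alternative, and 1.36-fold against M-BMM (0.44 ± 0.12, adjusted p = 0.0453). The latter was lost without either array of GM-BMDC or of M-BMM (adjusted p of 0.122 to 0.212) and with the Y-linked covariate (0.0563). Gusb, the beta-glucuronidase, and Arsb, another sulfatase, passed in no comparison. The 2 probe sets of Arsb gave -0.23 and -0.09 between GM-BMDC and GM-BMM, and 0.39 and 0.15 between GM-BMM and M-BMM.

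The sphingolipid class, as drawn here, was mixed, with 1 gene higher and 1 lower against GM-BMM, 1 higher and 2 lower against M-BMM, and medians of -0.21 and -0.27. Gm2a, the activator protein that presents the ganglioside GM2 for hydrolysis, was 12.59 and 12.82 in GM-BMDC, 12.19 and 12.19 in GM-BMM, and 12.04 and 12.01 in M-BMM. The dendritic cells were thus highest for Gm2a while Hexa, whose product it assists, was lower. Each gene was put in 1 class, and Hexa was counted with the glycoprotein hydrolases. The contrast between these classes therefore depends on where such genes were placed. Gm2a exceeded M-BMM 1.60-fold (0.68 ± 0.12, limma adjusted p = 0.00836) and GM-BMM 1.43-fold (0.51 ± 0.12, adjusted p = 0.0375). The former call was lost without either M-BMM array (0.0671 and 0.0695), and the latter without any array but the first of GM-BMDC (0.0889 to 0.132).

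Smpd1, the acid sphingomyelinase, was 8.24 and 8.28 in GM-BMDC, 9.29 and 8.79 in GM-BMM, and 9.21 and 9.06 in M-BMM. Both GM-BMDC arrays lay lower, 1.72-fold below GM-BMM (limma adjusted p = 0.0294) and 1.84-fold below M-BMM (adjusted p = 0.0122). The first call was lost without any array but the second of GM-BMM (adjusted p of 0.0743 to 0.130), and the second without the first GM-BMDC array or either M-BMM array (0.0634 to 0.113). Asah1, the acid ceramidase that splits ceramide, was 10.69 and 10.92, 11.35 and 11.16, and 11.39 and 11.37. It was 1.49-fold below M-BMM (limma adjusted p = 0.0235) and was not called against GM-BMM (-0.45 ± 0.13, adjusted p = 0.0773). The call against M-BMM was lost without the first GM-BMDC array or either M-BMM array (0.116 to 0.144) and with the Y-linked covariate (0.0821). Galc, Arsa and Psap, which degrade galactosylceramide, remove sulfate from sulfatide and encode the saposins, passed no test. Psap was nearly level, with all 6 arrays between 13.30 and 13.49.

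The class of phosphatases, lipase, thioesterase and peptidase held the largest differences of the 38 genes, with 3 of 5 lower against either macrophage and medians of -0.79 and -0.79. Acp5, the tartrate-resistant acid phosphatase known from osteoclasts and macrophages, was 8.57 and 9.13 in GM-BMDC, 10.54 and 11.25 in GM-BMM, and 10.22 and 10.20 in M-BMM. GM-BMM arrays were the highest but also 0.71 apart, the widest gap of the 38 genes in that group. The GM-BMDC level was 4.12-fold below GM-BMM (-2.04 ± 0.26, limma adjusted p = 0.00318), which held under each alternative, and 2.56-fold below M-BMM (-1.36 ± 0.26, adjusted p = 0.0113), which was lost without the first GM-BMDC array or either M-BMM array (0.0634 to 0.0976). Of 5 osteoclast markers, 2 were higher in GM-BMDC than in GM-BMM, Dcstamp and Ocstamp, and 1 was lower. The lower marker was Ctsk, the osteoclast's main collagen-degrading protease, at 6.52 and 7.01 in GM-BMDC, 8.60 and 9.10 in GM-BMM, and 6.35 and 6.13 in M-BMM (4.23-fold lower in GM-BMDC than in GM-BMM, limma adjusted p = 0.0015). Calcr and Oscar lay between 5.03 and 5.40 on all 6 arrays, and the list mean was 7.24 to 7.34 in GM-BMDC, 6.69 to 6.90 in GM-BMM and 5.71 to 5.87 in M-BMM. The part of osteoclast-type cells in the Acp5 result was not tested.

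Acp2, the lysosomal acid phosphatase, was 9.43 and 9.60 in GM-BMDC, 10.78 and 11.37 in GM-BMM, and 11.48 and 11.46 in M-BMM. It was 2.95-fold lower in GM-BMDC than in GM-BMM (-1.56 ± 0.19, limma adjusted p = 0.00274) and 3.88-fold lower than in M-BMM (-1.96 ± 0.19, adjusted p = 0.00062), and both calls held under each alternative. Tpp1, the tripeptidyl peptidase, was 10.12 and 10.34, 11.14 and 10.90, and 11.03 and 11.00. Its macrophage levels overlapped, while GM-BMDC was 1.73-fold below both (limma adjusted p = 0.0112 against GM-BMM and 0.00705 against M-BMM). The calls were lost without the first GM-BMDC array (0.0642) and without either M-BMM array (0.0693 and 0.0587), respectively. Ppt1, a thioesterase that removes palmitate from proteins, was not called (-0.74 ± 0.22 against GM-BMM, adjusted p = 0.0858), with GM-BMDC arrays at 9.87 and 10.55. Lipa, the acid lipase that splits cholesteryl esters, was close to level, with the 6 arrays between 11.99 and 12.23 and a difference of -0.04 ± 0.12 from GM-BMM.

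**Figure D3:**
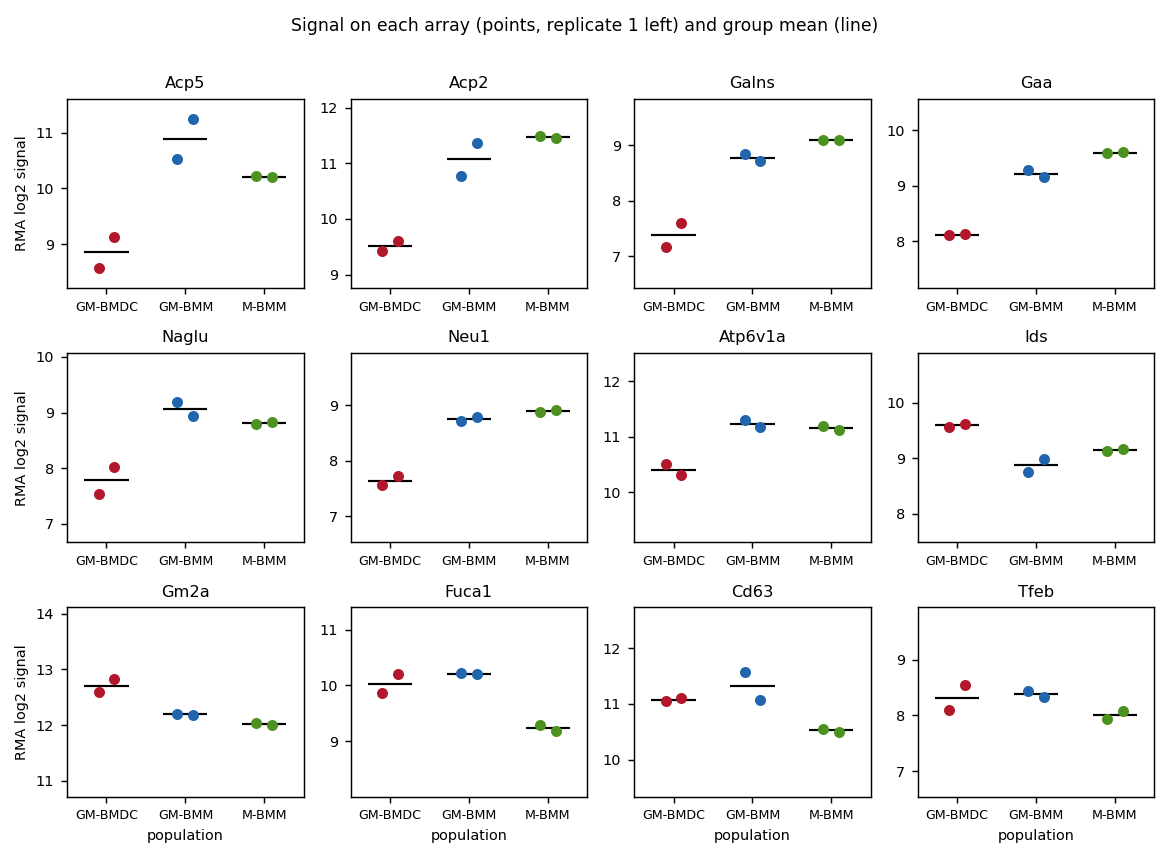
RMA log2 signal on each array (points, 2 per population) and the group mean (line) for 12 lysosomal genes, on vertical axes of equal span. Acp5, Acp2, Galns, Gaa, Naglu, Neu1 and Atp6v1a have both GM-BMDC points below all macrophage points, Ids and Gm2a have them above, and Fuca1 and Cd63 are lowest in M-BMM.

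Of the 5 membrane proteins, 1 was lower in GM-BMDC against GM-BMM and 1 against M-BMM, with medians of -0.24 and -0.11. Lamp1, a main glycoprotein of the lysosomal membrane, was 11.73 and 11.99 in GM-BMDC, 12.32 and 12.28 in GM-BMM, and 12.44 and 12.41 in M-BMM. The populations did not overlap, and GM-BMDC was 1.48-fold below M-BMM (-0.56 ± 0.12, limma adjusted p = 0.021) but not called against GM-BMM (-0.44 ± 0.12, adjusted p = 0.072). The call was lost without the first GM-BMDC array or either M-BMM array (0.103 to 0.134) and with the Y-linked covariate (0.0918). Mcoln1, a channel that releases calcium from the lysosome, was 9.84 and 10.00, 10.46 and 10.33, and 10.31 and 10.26. It was 1.39-fold below GM-BMM (limma adjusted p = 0.0448), a call lost without any single array (0.0585 to 0.201) and with the Y-linked covariate (0.061).

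Cd63, a tetraspanin of late endosomes and exosomes, was 11.05 and 11.11 in GM-BMDC, 11.57 and 11.06 in GM-BMM, and 10.55 and 10.50 in M-BMM. Both M-BMM arrays lay below the other 4, and GM-BMM exceeded M-BMM 1.73-fold (0.79 ± 0.17, limma adjusted p = 0.0372). The call was lost without any array but the second of GM-BMM (0.0541 to 0.231) and with the Y-linked covariate (0.119). Lamp2, a partner of Lamp1 that also serves chaperone-mediated autophagy, ranged only from 11.87 to 12.16, and neither it nor Scarb2, a receptor that also carries enzyme to lysosomes, passed a test.

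The 6 pump subunits included 2 that were lower in GM-BMDC than in GM-BMM, Atp6v1a and Atp6ap1, and 3 lower than in M-BMM, these and Atp6v1h. The class medians were -0.37 and -0.31. Atp6v1a, the catalytic subunit that splits ATP, was 10.51 and 10.31 in GM-BMDC, 11.30 and 11.17 in GM-BMM, and 11.20 and 11.13 in M-BMM. All macrophage arrays exceeded both GM-BMDC arrays, 1.77-fold in GM-BMM (-0.82 ± 0.12, limma adjusted p = 0.00643) and 1.68-fold in M-BMM (-0.75 ± 0.12, adjusted p = 0.0059). The former held under each alternative, and the latter was lost without the first M-BMM array (0.0635). Atp6v1h, a regulatory subunit of V1, was 8.26 and 8.41, 8.62 and 8.61, and 9.08 and 8.88. It was highest in M-BMM, 1.57-fold above GM-BMDC (limma adjusted p = 0.0109), a call lost without the first GM-BMDC array (0.0632) or the first M-BMM array (0.0976) and with the Y-linked covariate (0.0517). Atp6ap1, an accessory protein of pump assembly, was 11.22 and 11.40, 11.82 and 11.76, and 11.74 and 11.74. It was 1.39-fold below GM-BMM (limma adjusted p = 0.0405) and 1.35-fold below M-BMM (adjusted p = 0.0432). These calls were lost without any array except the second of GM-BMDC (0.0921 to 0.186, and 0.0572 to 0.194) and with the Y-linked covariate (0.0541 and 0.154).

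The V0 members were Atp6v0d1, Atp6v0a1 and Tcirg1, which is the a3 subunit of V0 that osteoclasts use, and they passed no test in limma. Tcirg1 came closest, with 11.11 and 11.30 in GM-BMDC, 11.62 and 11.68 in GM-BMM, and 11.33 and 11.32 in M-BMM (-0.45 ± 0.12 between GM-BMDC and GM-BMM, adjusted p = 0.0533). Taking in the other pump genes, 17 were measured. Of the 8 in V1, 4 were lower in GM-BMDC than in GM-BMM (median -0.51) and 5 lower than in M-BMM (median -0.70). Of the 7 in V0, limma called 0 in the first comparison (median -0.29, 2 lower at an unadjusted p under 0.05) and 1 in the second, which was higher in GM-BMDC (median 0.23). Over all genes, 5.74% were called lower in GM-BMDC than in GM-BMM, and 8.9% were called lower and 7.76% higher than in M-BMM. The difference between V1 and V0 was not tested. The called V0 gene was Atp6v0d2, an alternative d subunit known from macrophages and osteoclasts, at 10.79 and 11.28 in GM-BMDC, 12.03 and 10.71 in GM-BMM, and 6.98 and 6.95 in M-BMM. Both populations grown with GM-CSF lay far above M-BMM, 16.8-fold for GM-BMDC (4.07 ± 0.38, limma adjusted p = 0.000542) and 21.1-fold for GM-BMM (4.40 ± 0.38, adjusted p = 0.000812). Both calls held under each alternative, and GM-BMDC and GM-BMM overlapped.

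**Figure D4:**
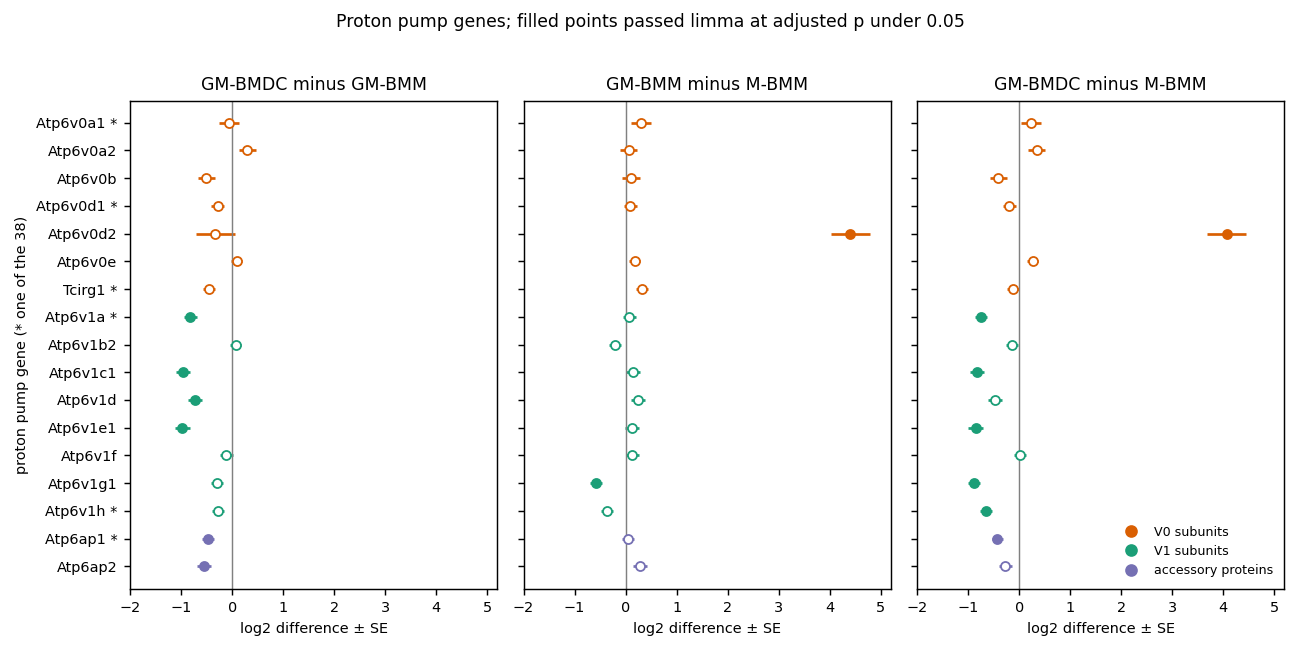
Log2 differences with standard errors (horizontal axis, n = 2 arrays per group) of 17 proton pump genes in the 3 comparisons, in V0, V1 and accessory groups, with filled points for limma adjusted p under 0.05. Filled V1 points lie left of zero in both comparisons of GM-BMDC, and Atp6v0d2 lies at 4.40 and 4.07 in the comparisons with M-BMM.

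The transcription factors Tfeb and Tfe3 passed no test in any comparison. Tfeb was 8.10 and 8.55 in GM-BMDC, 8.43 and 8.32 in GM-BMM, and 7.94 and 8.08 in M-BMM. Its GM-BMDC arrays spanned those of GM-BMM, with a difference of -0.06 ± 0.16 (limma adjusted p = 0.899), and it lay 0.31 ± 0.16 above M-BMM (adjusted p = 0.273). Tfe3 was 9.33 and 9.63 in GM-BMDC, 9.67 and 9.92 in GM-BMM, and 9.97 and 9.93 in M-BMM. It was lowest in GM-BMDC without overlap, with differences of -0.32 ± 0.14 from GM-BMM (limma adjusted p = 0.249) and -0.47 ± 0.14 from M-BMM (adjusted p = 0.0699). Transcript levels do not measure where these proteins are in the cell.

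**Figure D5:**
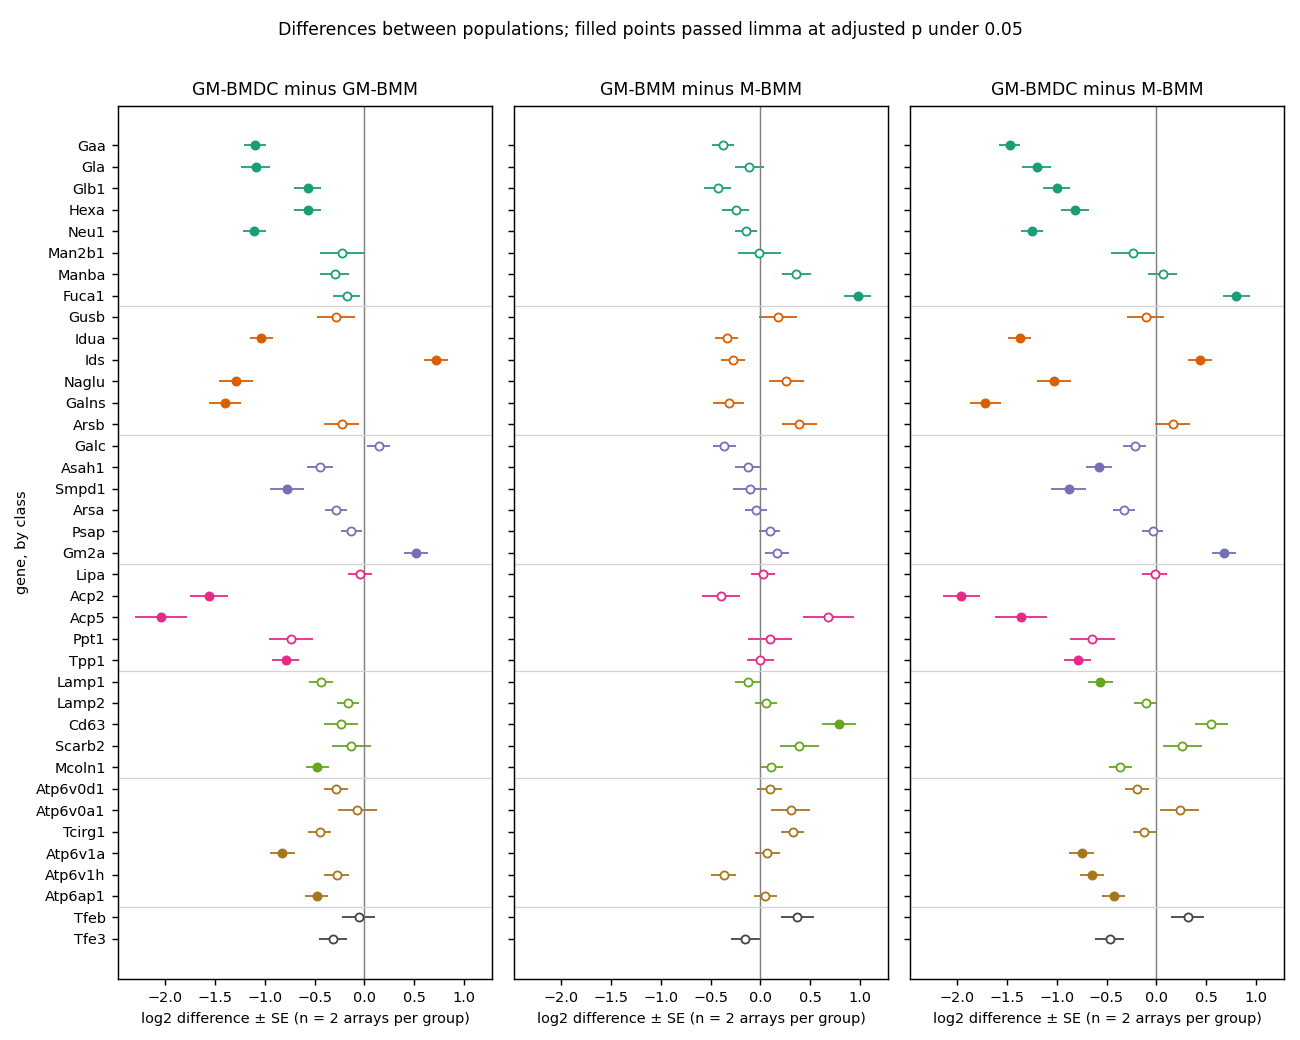
Log2 differences with standard errors (horizontal axis, n = 2 arrays per group) of the 38 lysosomal genes in the 3 comparisons, coloured by class, with filled points for limma adjusted p under 0.05. Filled points number 15 below and 2 above zero for GM-BMDC minus GM-BMM, 2 above for GM-BMM minus M-BMM, and 17 below and 3 above for GM-BMDC minus M-BMM.

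Further genes of the pathway came in 5 lists, with 69 of 78 genes measured, and the rest of the lists was not analysed here. Every list had a negative median difference in both comparisons of GM-BMDC. These medians ran from -0.36 to -0.26 against GM-BMM and from -0.48 to -0.27 against M-BMM, with calls in both directions over the lists. Over all genes, 5.74% were called lower and 4.69% higher in GM-BMDC than in GM-BMM, and 8.9% and 7.76% against M-BMM. For GM-BMM against M-BMM the shares were 2.57% lower and 3.62% higher. Of 16 other soluble lysosomal proteins, 1 was higher and 4 lower in GM-BMDC than in GM-BMM, 2 were higher and 1 lower in GM-BMM than in M-BMM, and 2 were higher and 7 lower in GM-BMDC than in M-BMM. Naaa, the acid amidase of N-acylethanolamines, was 9.80-fold above M-BMM in GM-BMDC (3.29 ± 0.24, limma adjusted p = 0.000236) and 7.46-fold above it in GM-BMM (2.90 ± 0.24, adjusted p = 0.000701). Prcp, a carboxypeptidase, was 3.31-fold above M-BMM in GM-BMDC (limma adjusted p = 0.000542), and both calls of Naaa and this call of Prcp held under each alternative. Sgsh, a heparan sulfate sulfamidase, was 2.91-fold lower in GM-BMDC than in M-BMM (limma adjusted p = 0.00654), a call lost without either M-BMM array (0.0738 and 0.0575).

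Of 18 other membrane proteins, 7 were lower in GM-BMDC than in GM-BMM, and 10 were lower and 1 higher than in M-BMM, while between the macrophages 1 was lower. Clcn7, the chloride-proton exchanger of lysosomes, was 2.44-fold lower in GM-BMDC than in GM-BMM (-1.29 ± 0.11, limma adjusted p = 0.0007) and 1.83-fold lower than in M-BMM (adjusted p = 0.00211), and both calls held under each alternative. Tpcn1, a cation channel, was 3.27-fold lower in GM-BMDC than in M-BMM (limma adjusted p = 0.00195). Cd68, a lysosomal glycoprotein much used as a macrophage marker, was 2.13-fold lower in GM-BMDC than in GM-BMM (limma adjusted p = 0.0131), a call lost without the second GM-BMM array (0.0524).

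Of 9 genes for enzyme maturation and delivery, 1 was higher and 1 lower in GM-BMDC than in GM-BMM, 1 higher and 2 lower than in M-BMM, and 1 higher in GM-BMM than in M-BMM. The gene higher in GM-BMDC was Gga2, 1.72-fold against GM-BMM (limma adjusted p = 0.0319) and 1.99-fold against M-BMM (adjusted p = 0.0083). These calls were lost in 8 and 1 of the 16 alternatives. Sumf1, which activates sulfatases such as Galns, Ids, Arsa and Arsb, was 1.69-fold lower in GM-BMDC than in M-BMM (limma adjusted p = 0.00717), a call lost without either M-BMM array (0.0723 and 0.054). Sort1, a sorting receptor for lysosomal proteins, was 2.93-fold higher in GM-BMM than in M-BMM (limma adjusted p = 0.044), a call lost without the first GM-BMM array or either M-BMM array (0.175 to 0.280) with the Y-linked covariate (0.112), and with trended and robust variances, median centring or all probe sets (0.0555 to 0.122). Of 15 genes that relay nutrient state to Tfeb and Tfe3, or are related to them, 2 were higher and 3 lower in GM-BMDC than in GM-BMM, 1 higher and 1 lower in GM-BMM than in M-BMM, and 2 higher and 5 lower in GM-BMDC than in M-BMM. Fnip2, a partner of folliculin, was 2.32-fold lower in GM-BMDC than in GM-BMM (limma adjusted p = 0.00404) and 2.92-fold lower than in M-BMM (adjusted p = 0.000842), and both calls held under each alternative. Rragd, a Rag GTPase, was 3.12-fold lower than in M-BMM (limma adjusted p = 0.00696), a call lost without the first M-BMM array (0.0811).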

How the data were processed

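The deposited table holds log2 signals that the authors made with Affymetrix Expression Console 1.1 and RMA, per the submitters' processing notes. RMA subtracts background, makes array distributions equal and combines each probe set's probes, which can shrink a difference shared by most genes. Total RNA, 300 ng per sample, was labelled, per the labels' protocols. Of 35556 probe sets, 21789 were assigned to 1 gene, 1621 to several and 12146 to none by the platform annotation. The annotation's genome build is not given in the sources used here.

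Group means were fitted over all 6 arrays with limma 3.58.1 in R 4.3.3 (3 residual and 4.34 prior degrees of freedom), with two-sided tests and Benjamini-Hochberg adjustment over 19938 genes at 0.05. No filter or pseudocount was used. The fit was also run on simulated data in which the noise of each gene was independent. Genes shifted together between arrays here, so that run does not bear on how reliable the calls are. Precision is limited by the number of arrays, the standard errors of the 38 genes' differences having a median of 0.134. Plots were drawn with matplotlib 3.10.9, and tables and promoter searches used pandas 2.3.3 and NumPy 2.4.6 under Python 3.11.15.

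The 38 genes, the pathway and marker lists and the sex-linked alternatives were chosen with earlier results of these data known. Array values are given for genes past the threshold in any comparison, up to 5 a class by size, and for Tfeb and Tfe3. At most 3 genes are named per pathway list by size, with Mtor and Rptor added. There were 16 alternatives to the fit.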

Additional observations from a re-analysis of the deposited data

How the results depend on the processing

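With 2 arrays per group, counts of calls depended on single arrays. Of the 16 alternatives, some left out each array in turn or both first GM-CSF arrays. Others used the replicate block, its crossed form, only the groups compared, trended and robust variances or genes above the median signal. The remaining ones used median centring, the mean of probe sets, all probe sets or the Y-linked covariate. Both forms of the block, only the groups compared, trended and robust variances, genes above the median signal and all probe sets leave a log2 difference as it was. So do the mean of probe sets, for the called genes, and leaving out an array of the third population. In the rest, where direction could change, no call of the 38 genes changed it. Of those lower in GM-BMDC, 9 of 15 calls against GM-BMM and 7 of 17 against M-BMM held in every alternative, as did 1 of 2 higher against GM-BMM, 0 of 3 higher against M-BMM, and 0 of 2 between the macrophages.

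Leaving out 1 array gave 1 to 2 members higher in GM-BMDC than in GM-BMM (2 with all arrays) and 9 to 15 lower (15), 0 to 2 higher in GM-BMM than in M-BMM (2) and 0 to 1 lower (0), and 0 to 4 higher in GM-BMDC than in M-BMM (3) and 7 to 20 lower (17). Over all genes the calls ranged from 1102 to 2055 for GM-BMDC against GM-BMM (2079), 319 to 1347 for GM-BMM against M-BMM (1235), and 1288 to 3412 for GM-BMDC against M-BMM (3323). Fitting only the groups compared gave 1 member higher and 10 lower in GM-BMDC than in GM-BMM, and 1 higher in GM-BMM than in M-BMM. It gave 4 higher and 16 lower in GM-BMDC than in M-BMM, and 1207 genes for GM-BMDC against GM-BMM. Testing all probe sets gave 1 member higher and 10 lower in GM-BMDC than in GM-BMM, and 1 higher in GM-BMM than in M-BMM. Against M-BMM it gave 2 higher and 14 lower in GM-BMDC. Median centring gave 1 higher in GM-BMM than in M-BMM. Without the first array of both GM-CSF populations, 9 members were lower in GM-BMDC than in GM-BMM and 1 was lower in GM-BMM than in M-BMM. The Y-linked covariate left 2114 genes for GM-BMDC against M-BMM. The cause of these changes was not tested.

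The labels do not say that replicate numbers pair the arrays, and deviations of arrays with the same number correlated at 0.024 (GM-BMDC with GM-BMM), -0.132 (GM-BMDC with M-BMM) and 0.0263 (GM-BMM with M-BMM), although Y-linked signal was low on the first and high on the second array of both GM-CSF populations. The replicate block gave 1 member higher and 11 lower in GM-BMDC than in GM-BMM, 2 and 0 between the macrophages, and 2 and 16 against M-BMM. Its adjusted p was above 0.05 for Glb1 (0.0518), Hexa (0.054), Gm2a (0.0569), Mcoln1 (0.0745) and Atp6ap1 (0.0661) against GM-BMM, for Ids (0.0594) and Atp6ap1 (0.0709) against M-BMM, and for Sort1 (0.0576) between the macrophages. A crossed pairing of the M-BMM numbers, chosen after seeing the data, gave 1 and 11, 1 and 0, and 2 and 16.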
